A study of Mus musculus with 4 samples.

Results

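The mouse gene Atxn1 (GeneID 20238, protein-coding) spans chr13:45549755-45964991 of build GRCm38, 415 kb of chromosome 13. The labels name build mm9, but the tabulated positions fall on gene ends of GRCm38, so GRCm38 is used throughout. At this gene, 45 regions of chromatin were listed as differing in accessibility between sorted T helper populations, of 52537 such regions in all. They were chosen by position: a listed region belonged to Atxn1 when its midpoint lay inside the gene, or outside every protein-coding gene and nearest to an end of Atxn1 within 100 kb. Of the 45, 39 lay inside the gene and 6 outside it. They came from 82 entries of 6 deposited tables, since a region could be listed in several comparisons, and entries that overlapped by at least 1 bp were counted as 1 region. At 3 of the regions the entries differed in width, and the outer bounds are given. Because a region had to be listed to be counted, every count and fold below describes the listed regions and carries no test.

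Accessibility was measured by ATAC-seq, in which a transposase inserts adapters into open DNA, in mice sensitized to and challenged intranasally with house dust mite extract, a model of allergic asthma. All animals had the allergen and were taken at day 15. Th2 cells were sorted as CD3+ CD4+ CD44+ ST2+ CD30L+, Treg cells as CD3+ CD4+ CD25hi CD30L-, and other effector cells, the memory cells outside Th2, as CD3+ CD4+ CD44+ ST2- CD30L+, all from lung with airways. Naive cells were sorted as CD3+ CD4+ CD44lo CD62Lhi from the mediastinal lymph node, so each comparison with them is also one of tissues. Per the labels' protocols, 3 biological replicates of 1000 cells were sorted for each population. Strain, sex and age were not in the labels. The tables give 1 log2 fold per region and pair of populations, which is the authors' own value throughout. The tables used here carry neither read counts nor replicate values nor p-values. Depth is therefore unknown, and the folds come without an error. A step of 1 on the log2 scale is a doubling.

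Ataxin-1, the product of Atxn1, is a nuclear protein best known because expansion of its polyglutamine tract causes spinocerebellar ataxia type 1. Together with its paralogue ataxin-1-like it binds Capicua, a DNA-binding repressor, and stabilizes it. Capicua holds down Etv1, Etv4 and Etv5, which encode ETS transcription factors, and feedback inhibitors of MAP kinase signalling. In mice, loss of Capicua from T cells is known to enlarge the follicular helper compartment. The gene is known to be transcribed toward lower coordinates, so its start lies at the higher-coordinate end, although the gene table used here gives no strand.

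At 44 of the 45 regions of Atxn1 the more accessible population was Th2, Treg or both, and at 1 it was naive cells. Other effector cells were the higher population in no comparison of the series. The matching split over all regions was not counted. Among all regions, naive cells were higher than other effector cells at 33.7%, than Th2 cells at 9.21% and than Treg cells at 5.76%. Against naive cells, 12 regions were listed as higher in Th2 cells and 0 as higher in naive cells. These were 26.7% and 0 of the 45, where over all merged regions 9.67% were higher in Th2 and 9.21% higher in naive cells. Likewise 12 regions were higher in Treg and 0 in naive cells, with 6.64% of all regions higher in Treg and 5.76% higher in naive cells. Between Treg and Th2 cells, 4 regions were higher in Treg than Th2 cells and 0 were higher in Th2 cells, with 3.34% and 6.72% of all regions in these directions.

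Other effector cells were the lower population throughout their 3 tables, at Atxn1 as everywhere else. Th2 cells were higher than other effector cells at 25 regions of Atxn1, or 55.6%, close to the 53.2% of all regions. Treg cells were higher than other effector cells at 28, or 62.2%, with 46.7% of all regions. Other effector cells were higher than naive cells at 0 regions and lower at 1, or 2.22%, where 33.7% of all regions were lower. The 3 tables of other effector cells supplied 25 of the 45 regions alone, and 20 regions appeared in a comparison without these cells. This split was not counted over all regions, so it is not a trait of Atxn1.

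Sorted by the populations listed as higher, 19 regions were Treg, 16 Th2, 9 both and 1 naive, a split not counted over all regions. The comparisons share libraries, so the same cells enter several folds of a region. None of the 16 Th2 regions was listed in the Treg versus Th2 table, and 15 of the 19 Treg regions were not either. A missing listing does not show that the 2 populations were equally open there. Among all regions, only 3.34% were listed as higher in Treg than Th2 cells and 6.72% as higher in Th2 than Treg cells.

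**Figure D1:**
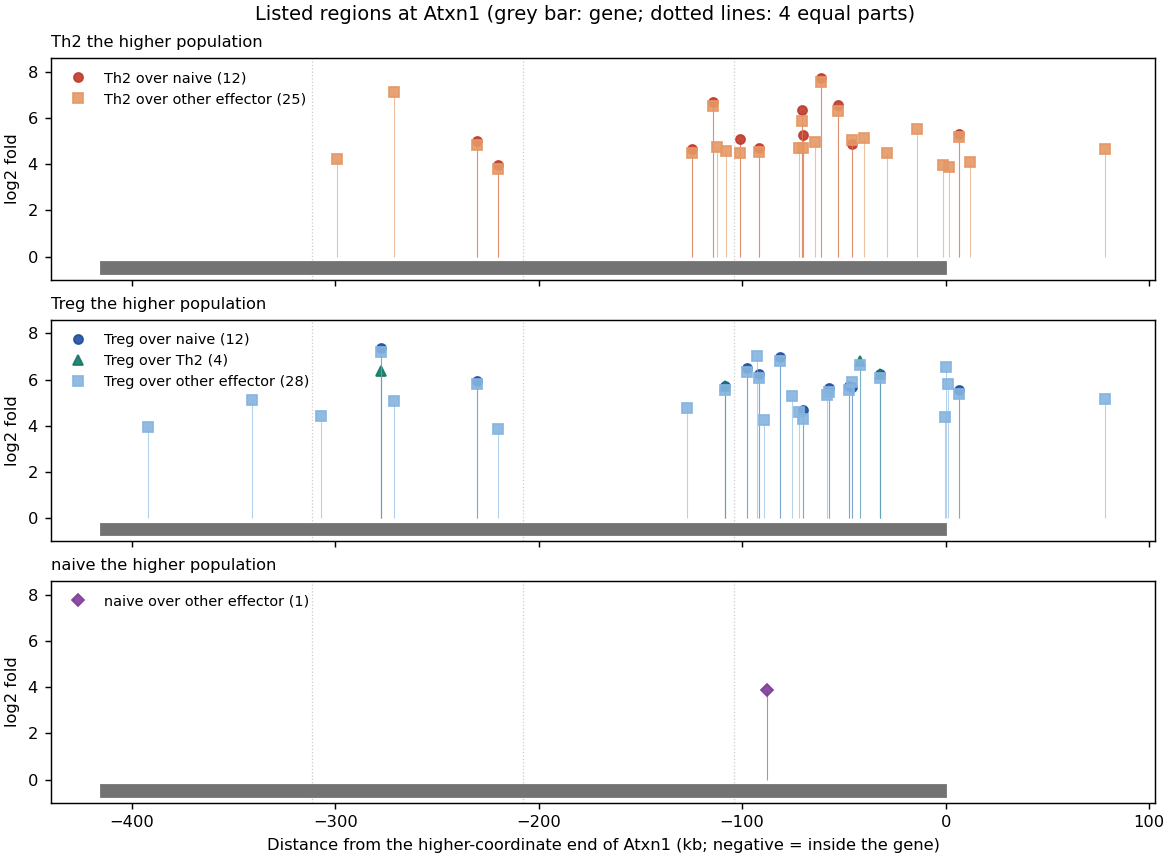
Listed regions along Atxn1, with distance from the higher-coordinate gene end in kb on the x axis and the authors' log2 fold on the y axis, in 1 panel for each higher population. Each point is 1 region in 1 comparison, and 25 of the 39 inside regions lie in the stretch of 104 kb next to the higher-coordinate end.

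Th2 cells stood furthest above naive cells at chr13:45903528-45904311, inside the gene 61.1 kb from its higher-coordinate end, with a log2 fold of 7.74. Th2 was 7.57 above other effector cells at the same place. Among all regions in these directions the folds were at percentiles 95.1 and 94.3, the highest percentiles of any Atxn1 region. It was not listed between Treg and Th2 cells.

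The next folds of Th2 over naive cells were 6.69 at chr13:45850139-45851019 and 6.56 at chr13:45911956-45912315. Over other effector cells, Th2 stood at 6.51 and 6.32 in these regions. At chr13:45894287-45894719 the log2 folds of Th2 were 6.37 over naive and 5.86 over other effector cells. These 3 regions and the leading one lay between 52.9 and 114.4 kb from the higher-coordinate end, and none of them was listed with Treg as the higher population.

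Below them, chr13:45863832-45864209 had a log2 fold of 5.10 for Th2 over naive and 4.49 for Th2 over other effector cells. At chr13:45839816-45840466 these folds were 4.67 and 4.50. The lowest of the 12 folds over naive cells was 3.98, at chr13:45744763-45745100, just above the smallest fold of 3.47 listed in that direction. Treg cells were 3.85 and Th2 cells 3.81 above other effector cells there, at percentiles 1.82 and 1.69 of their directions.

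A further 10 Th2 regions were listed over other effector cells and in no other table. Their log2 folds ran between 3.88 and 5.52, the highest at chr13:45950657-45951078, 14.1 kb from the higher-coordinate end. At chr13:45924441-45925087 the fold was 5.12. The others were smaller, with 4.96 at chr13:45900729-45900985, 4.73 at chr13:45852316-45852657, 4.57 at chr13:45857209-45857360 and 4.47 at chr13:45936297-45936553. The remaining Th2 region inside the gene away from its ends, chr13:45665408-45665914, had 4.23 and was the Th2 region closest to the lower-coordinate end.

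Treg cells were the higher population at the 4 regions listed between Treg and Th2 cells. At chr13:45922578-45922952 the log2 fold was 6.81 over Th2 and 6.62 over other effector cells, with no listing against naive cells. At chr13:45687469-45688007 Treg cells were 6.37 above Th2, 7.35 above naive and 7.18 above other effector cells, and the folds over naive and other effector cells were the largest of Treg at the gene. At chr13:45932345-45932914 these folds were 6.24, 6.23 and 6.05, and at chr13:45856213-45856483 they were 5.74, 5.73 and 5.56. All 4 stood above the median of 5.57 for regions higher in Treg than Th2 cells.

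In the other Treg regions, Treg and Th2 cells were not listed as different. The widest region of the gene, chr13:45882994-45884298 with 1305 bp, had a log2 fold of 6.99 for Treg over naive and 6.81 for Treg over other effector cells. At chr13:45867349-45867733 these were 6.50 and 6.32. Folds of 5.71 and 5.54 were listed at chr13:45917126-45917680, and of 5.63 and 5.46 at chr13:45907441-45907700. With the 4 regions above, the Treg regions listed against naive or Th2 cells lay between 32.4 and 277.3 kb from the higher-coordinate end.

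Of the Treg regions listed over other effector cells alone, chr13:45871659-45872763 had the largest log2 fold, 7.03. The 3 regions closest to the lower-coordinate end were all of this kind, with 3.93 at chr13:45572879-45573075, 5.12 at chr13:45624129-45624278 and 4.44 at chr13:45657684-45657833. Further along the gene the folds were 4.78 at chr13:45837567-45838130, 4.26 at chr13:45875718-45876066, 5.28 at chr13:45889162-45889643 and 5.32 at chr13:45906383-45906605.

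Both Treg and Th2 cells were listed as higher at 9 regions, of which 5 were listed in 4 comparisons, the most that any region of Atxn1 reached. At chr13:45872962-45873322 Treg cells were 6.24 above naive and 6.07 above other effector cells. Th2 cells were 4.69 above naive and 4.52 above other effector cells in that region. At chr13:45734446-45734986 the log2 folds over naive cells were 5.96 for Treg and 5.01 for Th2, and over other effector cells 5.79 for Treg and 4.84 for Th2. The fold of Treg was the larger in both regions, without a listing between the 2 populations.

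At chr13:45918997-45919324 the log2 folds over naive cells were 5.69 for Treg and 4.86 for Th2, and over other effector cells 5.90 for Treg and 5.07 for Th2. At chr13:45894893-45895277 Th2 had the larger fold. Treg was 4.69 and Th2 5.28 above naive cells there, and over other effector cells the folds were 4.28 for Treg and 4.72 for Th2. The fifth of these regions lay outside the gene, at chr13:45971309-45971491, with 5.55 for Treg and 5.33 for Th2 over naive cells and 5.38 for Treg and 5.16 for Th2 over other effector cells.

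The other shared regions were listed over other effector cells for both populations. At chr13:45693130-45694316, 1187 bp wide, the log2 fold was 5.07 for Treg and 7.11 for Th2, the second largest fold of Th2 over other effector cells at the gene. At chr13:45892471-45892967 it was 4.61 for Treg and 4.72 for Th2, and outside the gene at chr13:46043082-46043749 it was 5.15 for Treg and 4.65 for Th2. The last shared region is the one at chr13:45744763-45745100 described above.

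**Figure D2:**
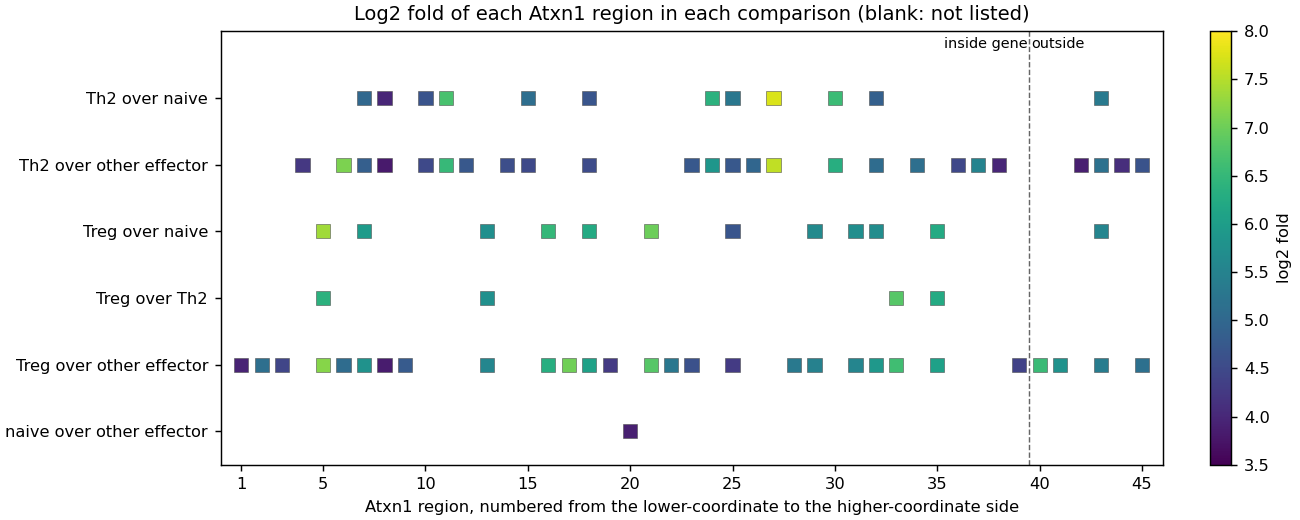
Log2 fold, as colour, of the 45 Atxn1 regions (x axis, in genome order) in the 6 directions that held any of them (y axis). Blank positions were not listed, and the 5 regions filled in 4 directions have both Th2 and Treg above naive and other effector cells.

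The single region with naive cells on the higher side was chr13:45877061-45877326. It was listed against other effector cells alone, with a log2 fold of 3.90 for naive over other effector cells, at percentile 2.95 of that direction. The listed region on either side of it was one of Treg cells.

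Around the higher-coordinate end, where the gene is known to start, 5 regions given to Atxn1 had their midpoint within 2000 bp. Around the lower-coordinate end 0 did. All 5 were listed over other effector cells alone. Treg was the higher population at chr13:45964823-45965760, which spans the annotated end, with a log2 fold of 6.55, and at chr13:45965880-45966166 with 5.79. Both overlap the non-coding gene 5033430I15Rik, annotated next to Atxn1, so regions here cannot be given to one gene or the other. The fold of Treg was 4.38 at chr13:45964358-45964633, just inside Atxn1. Th2 was the higher population at the outer pair of the 5, with 3.98 at chr13:45963502-45964132 and 3.88 at chr13:45966711-45966871. No region next to this end was listed against naive cells, so the folds over naive cells came from inside the gene and from 1 region 6409 bp beyond its end.

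The outermost regions were 12103 and 78424 bp beyond the higher-coordinate end. The first of these, chr13:45976939-45977250, had a log2 fold of 4.09 for Th2 over other effector cells. The second is the shared region given above. The next listed region on this side, chr13:46091203-46091381, lay 126301 bp from the end and so fell outside the limit of 100 kb, with folds of 3.99 for Treg and 4.58 for Th2 over other effector cells. At the lower-coordinate end the nearest region given to Atxn1 was 23222 bp away. Gmpr ends close by, at 45546386, and any region nearer to it was given to Gmpr, which had 1.

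Position within the gene was uneven. Divided into 4 equal parts of 104 kb, the gene held 2, 6, 6 and 25 of the 39 inside regions, from the lower- to the higher-coordinate end. The fullest part thus held 64.1%. It contained 11 Treg, 9 Th2 and 4 shared regions and the naive one, so each kind of region was present there. A stretch of 92466 bp, between 45745100 and 45837567, held no listed region. Regions were 150 to 1305 bp wide with a median of 378 bp, against 497 bp over all regions, and inside the gene they covered 4.42% of its length.

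The fullest part is favoured by being picked, so other long genes give the scale. Among 51 other protein-coding genes of 300 kb or more with at least 15 inside regions, the fullest part held a median of 44.6%, with a range of 31.2% to 73.3%. In 6 of the 51 it was at or above the value of Atxn1. In all, 557 genes reached 300 kb and 198 of them held no listed region inside.

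Atxn1 was chosen for its regions, so its density and its ranks only describe it. It had 9.39 inside regions per 100 kb of gene, where the median of the other long genes was 0.267. Bach2, a repressor that keeps T cells resting, had 16.1 per 100 kb, Foxp1, a factor of T cell quiescence, 13.7, the calcium channel gene Itpr1 10.4 and Ldlrad4 9.44. These 4 were the long genes above Atxn1. By number of regions, flanking ones included, Atxn1 was tied with Sgms1 at rank 5 of all protein-coding genes, after Foxp1 with 86, Bach2 with 67, and Akap13 and Wwox with 51 each.

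**Figure D3:**
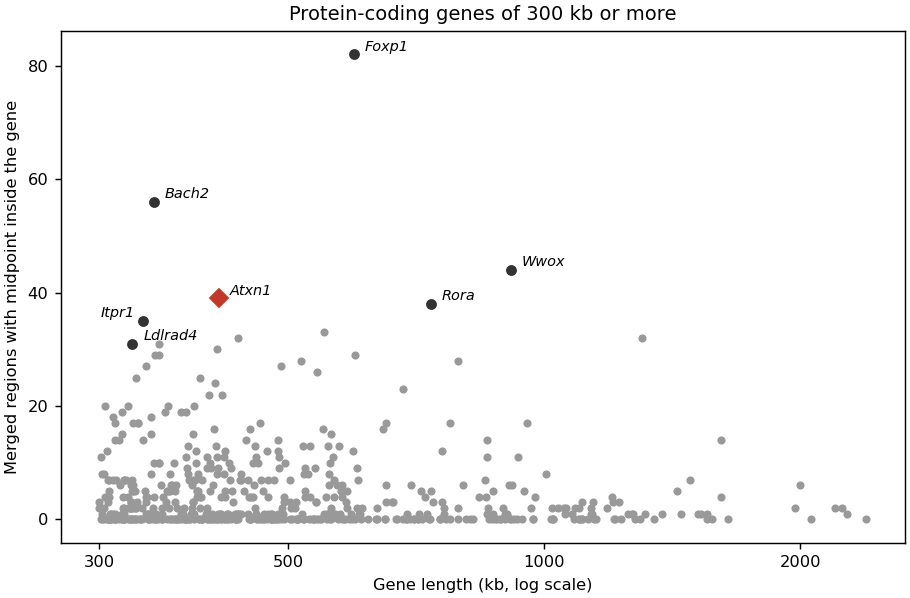
Number of merged regions inside each of 557 protein-coding genes of 300 kb or more (y axis) against gene length in kb on a log scale (x axis), 1 point per gene. Atxn1 (red diamond, 39 regions, 415 kb) lies above most genes of its length and below Bach2 and Foxp1.

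By direction, Atxn1 led all genes in regions where Th2 exceeded naive cells, with 12, where Il1rl1, Itpr1, Myo1e and Rbpj had 11 each. It was also first among those higher in Treg than naive cells, with 12, followed by Niban1 and Sh3rf1 with 11 each. Both margins are 1 region, and Il1rl1 encodes the sort marker ST2. These ranks take no account of gene length, and Atxn1 was chosen for its regions. Atxn1 spans 415 kb, whereas Il1rl1 spans 60.6 kb and Rbpj 101.7 kb, so both hold more such regions per kb than Atxn1. Among regions higher in Treg than Th2 cells its 4 placed it at rank 11, a count shared by 28 genes. Against other effector cells it was at rank 3 for Th2, shared by 3 genes, and at rank 4 for Treg, shared by 2.

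The folds of Th2 were not large for their tables, whereas those of Treg had medians near or above those of all regions. For Th2 over naive cells the 12 log2 folds of Atxn1 had a median of 5.19 against 5.59 for all regions in that direction, and 4 of the 12 exceeded that median. For Th2 over other effector cells the median was 4.72 against 5.40, with 6 of 25 above. For Treg the medians were close, 5.85 against 5.72 over naive cells with 7 of 12 above, and 5.42 against 5.38 over other effector cells with 14 of 28 above. For Treg over Th2 cells the median was 6.30 against 5.57.

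**Figure D4:**
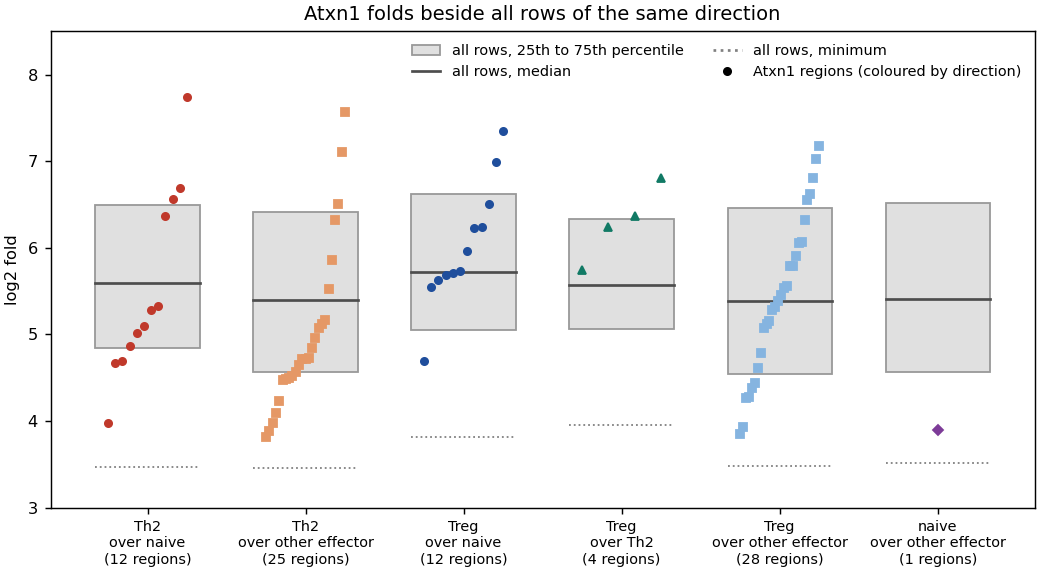
Log2 folds of the Atxn1 regions (points, y axis) in the 6 directions that held any (x axis), over grey boxes for the 25th to 75th percentile of all entries of that direction, with the median as a line and the minimum dotted. Th2 points lie mostly below the line for all regions, and the 4 points of Treg over Th2 lie above it.

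The genes whose regions were divided most like those of Atxn1 were found by the mean absolute difference, over the 9 directions that held entries, in the share of a gene's regions listed. Among genes with at least 15 regions, Plxnc1, a semaphorin receptor gene, was nearest with a mean difference of 2.57 percentage points over 17 regions. Tnfaip3, which encodes the NF-kappaB inhibitor A20, followed with 3.41 points over 25 regions. Coro2a differed by 3.89 points over 20 regions, Hivep3 by 4.44 over 24 and Rora, an orphan nuclear receptor gene, by 5.12 over 38. All regions together differed from Atxn1 by 12.6 points.

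These 5 genes were picked on these shares, so their likeness to Atxn1 follows from the choice. In each of the 5 no region was higher in naive than Treg cells, where 5.76% of all regions were. Plxnc1, Tnfaip3 and Coro2a also had none higher in naive than Th2 cells, and Hivep3 and Rora had 1 each. The share of all regions in that direction was 9.21%. The genes parted from Atxn1 in other directions. Tnfaip3 had 3 and Rora 7 regions higher in naive than other effector cells, against 1 at Atxn1, and Coro2a had 2 higher in Th2 than naive cells, against 12. With 17 to 38 regions a gene, 1 region moves a share by several points.

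**Figure D5:**
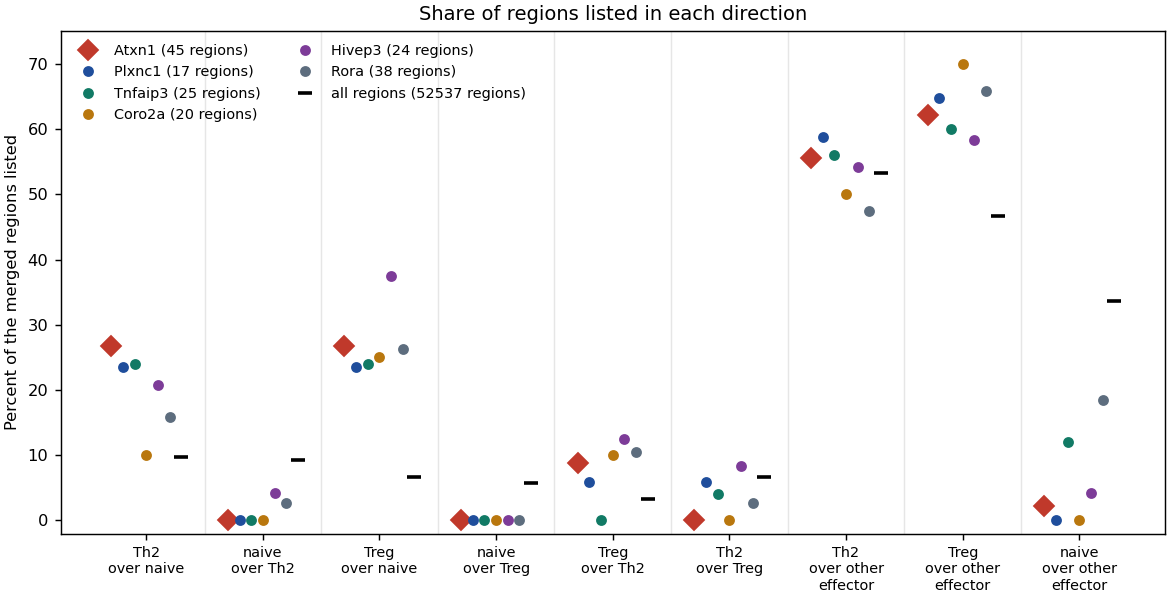
Percent of merged regions listed in each of 9 directions (y axis) for Atxn1 (red diamonds), the 5 genes nearest to it (circles) and all 52537 regions (black bars). Atxn1 and the 5 genes lie above the bars for Th2 over naive and Treg over naive. They lie below them where naive cells are the higher population. The 5 genes were picked for their likeness to Atxn1 in these shares.

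The 2 nearest protein-coding genes on each side had 18 listed regions in all. Gmpr, which encodes a guanosine monophosphate reductase and lies next to the lower-coordinate end, had 1 region, higher in Th2 than other effector cells. Mylip, the gene of a ubiquitin ligase for lipoprotein receptors, had 10, of which 6 were higher in naive than other effector cells and 1 higher in Th2 than Treg cells. On the other side Stmnd1 had 4 regions and Rbm24, an RNA-binding protein gene, 3. Over these 4 neighbours 0 of the 18 regions were higher in Th2 than naive cells and 1 was higher in Treg than naive cells, at Rbm24. The shares of all regions in these directions were 9.67% and 6.64%. With so few regions, these counts do not set the neighbours apart from the shares of all regions.

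Among 22 genes of partners and targets of ataxin-1 and Capicua, 19 had at least 1 region, 173 in all. Of all protein-coding genes, 63.5% had at least 1. Th2 exceeded naive cells at 21 of the 173 regions, and naive exceeded Th2 cells at 14. The shares of all regions in these directions were 9.67% and 9.21%. Regions higher in Th2 than naive cells lay at 6 of the 22 genes, and regions higher in naive cells at 9. For Treg against naive cells the numbers were 4 and 2, and for Treg against Th2 cells 2 and 6. Of all protein-coding genes 13.4% had a region higher in Th2 than naive cells, 11.6% one higher in naive than Th2 cells, 9.59% one higher in Treg than naive cells and 8.34% one higher in naive than Treg cells. The shares of all genes for Treg against Th2 cells were 5.61% with a region higher in Treg and 10.2% with one higher in Th2 cells. Genes differ in length and so in the chance of holding a region.

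Of all regions, 53.2% were higher in Th2 and 46.7% in Treg than other effector cells. The paralogue Atxn1l had 2 regions, both higher in Treg and in Th2 than other effector cells. At 1 of them Treg and Th2 were also higher than naive cells. Cic, which encodes Capicua, had 4, of which 1 was higher in naive than Th2 cells and none was listed between Treg and naive cells. Of the Capicua targets, Etv4 had no region, Etv5 had 2 and Etv1 6, of which 2 were higher in Th2 than Treg cells. Dusp4, a phosphatase gene of the MAP kinase pathway, had 20 regions, 18 of them higher in Treg than other effector cells, 4 higher in Treg than naive cells and 2 higher in Treg than Th2 cells. Th2 cells exceeded naive cells at 1 region of Dusp4 and naive cells exceeded Th2 cells at 2, and 2 regions were higher in naive than other effector cells. Dusp6, its relative, had 10, of which none was higher in Treg or Th2 than naive cells and 2 were higher in naive than Treg cells. Spred2, an inhibitor of the same pathway, had 19, with 1 higher in Th2 than naive cells and 3 higher in naive cells.

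Among binding partners, Rbpj, the DNA-binding factor of Notch signalling, had 21 regions, with 11 higher in Th2 than naive cells, 4 higher in Treg than naive cells and 0 higher in naive cells. Rora had 38, with 10 higher in Treg and 6 higher in Th2 than naive cells. Rbpj and Rora thus held 17 of the 21 regions of the list that were higher in Th2 than naive cells. The corepressor gene Ncor1 had 2, both higher in Treg than other effector cells, where 46.7% of all regions were. The kinase gene Nlk had 8, with 3 higher in naive than Th2 cells. Hdac3 and Ywhae had none, and the rest of the list, Spry4, Spred1, Sp1, Kat5, Gfi1, Rbm17 and U2af2, had 2 to 7 each, none of them higher in Th2 or Treg than naive cells.

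Promoter windows of RefSeq, 250 bases before to 50 after a gene start on GRCm38.p6, were at hand for 16 genes of the list in 23 windows. They were searched on both strands for the Capicua octamers TGAATGAA and TCAATGAA, and 1 window held a match, where 2.03% of all 32851 windows did. Of 8 other motifs searched, TGGAAA (the core bound by NFAT), held by 21.4% of all windows, was also found there, and 0 matches overlapped the octamer. It belongs to Rbpj, lies at chr5:53590096-53590395 on the plus strand and is shown because a region higher in Th2 than other effector cells, with a log2 fold of 6.80, covers all 300 bases of it. Capitals mark the octamer.
Rbpj: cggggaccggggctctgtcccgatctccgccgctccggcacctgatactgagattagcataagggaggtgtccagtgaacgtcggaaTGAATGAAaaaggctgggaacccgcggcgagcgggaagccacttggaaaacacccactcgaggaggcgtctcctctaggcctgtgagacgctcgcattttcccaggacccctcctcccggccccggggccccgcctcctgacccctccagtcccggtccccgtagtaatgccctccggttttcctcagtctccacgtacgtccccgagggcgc
A match is a description of the letters, not of a bound site. Regions overlapping a window of Dusp6 had Th2 above both Treg and other effector cells. At windows of Cic and Etv5, Th2 or Treg stood above other effector cells. The same was listed at windows of Gfi1, Kat5, Ncor1, Nlk, Rbm17, Rbpj, Sp1, Spred1 and Spred2. At that Gfi1 window naive cells also stood above other effector cells. No listing fell on any window of Atxn1l, Etv1, Rora or Ywhae, nor on another window of Etv5, Gfi1 and Ncor1. Among all regions, Th2 stood above other effector cells at 53.2% and Treg at 46.7%. Those are shares of listed regions, not of promoter windows. The share of all windows with a listing was not counted, so whether the windows of Capicua targets stand apart was not tested.

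Markers of the sorted populations were checked in the same tables. The direction of the folds was itself read from marker genes, so these counts are no separate support. For the 6 naive markers, naive cells were the lower population at 1 region and the higher at 40 against Th2 cells, and against Treg cells they were lower at 0 and higher at 26. For the 4 Treg markers, Treg cells exceeded Th2 cells at 17 regions, 3 of them at Foxp3, and Th2 cells exceeded Treg cells at 0. For the 6 Th2 markers, Th2 cells exceeded naive cells at 19 regions, 11 of them at the sort marker gene Il1rl1, and naive cells exceeded Th2 cells at 0, whereas Gata3 and Ccr8 had none in that direction. Between Treg and Th2 cells this list had 1 region higher in Treg, at Gata3, and 1 higher in Th2 cells, at Il13, so its listed regions did not separate these populations. Treg cells exceeded naive cells at 11 of its regions, 9 of them at Il1rl1 and 2 at Ccr8. Among other cell types, regions higher in Th2 than naive cells numbered 0 for 4 B cell markers, 1 for 4 CD8 and natural killer markers, 2 each for 4 myeloid and 4 lung structural markers, 2 for 3 Th1 markers and 1 for 3 Th17 markers. Those higher in Treg than naive cells numbered 0 for the B cell and the CD8 and natural killer lists, 1 each for the myeloid and Th1 lists, 3 for the lung structural and 6 for the Th17 list. In the opposite direction, naive cells exceeded Th2 cells at 5 of the 20 B cell regions and 6 of the 12 CD8 and natural killer regions. They did so at 1 myeloid region and at 0 of the lung structural, Th1 and Th17 lists. Naive cells exceeded Treg cells at 2 regions each of the B cell, CD8 and natural killer, and myeloid lists. Over other effector cells they were higher at 17 B cell, 9 CD8 and natural killer and 11 myeloid regions. Lyz2, Sftpc and Cxcr3 had no listed region in any table. Of all regions, 9.67% were higher in Th2 and 6.64% in Treg than naive cells. Naive cells were higher than Th2 cells at 9.21%, than Treg cells at 5.76% and than other effector cells at 33.7%. The part of other cells in the regions of Atxn1 was not tested.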

How the data were processed

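ATAC-seq libraries of 4 sorted T helper populations were made from 1000 cells per replicate. Per the labels' protocols, cells were tagmented for 30 minutes, amplified over 16 cycles and read as pairs of 125 bases. Titles give day 15 throughout, while 2 descriptions (other effector and naive cells) carry day 10. The titles were followed, and for the tissue of naive cells the protocol. The deposited values are log2 folds, 1 per region and pair of populations, read as log2 because DiffBind, named in the submitters' processing notes without a version, reports folds on that scale. The aligner, peak caller, normalization, threshold and any filter by direction were not given in the sources used here. Depth is unknown.

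The submitters' processing notes name build mm9, but on chromosome 13 17.5% of 2665 distinct entries lay within 1 kb of an end of a GRCm38.p6 protein-coding gene, against at most 4.95% after shifts of up to 1000 kb (201 shifts, of which 0 was best), so coordinates are given as GRCm38, 1-based. A positive deposited fold means the first-named population is higher, as read from naive, Treg and Th2 marker genes. Each fold is printed as higher over lower population.

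Python 3.11.15 with numpy 2.4.6 was used. Overlapping entries were merged, and regions were assigned to 21900 protein-coding genes as described, to the shortest where several hold the midpoint. The steps were tested on simulated data with planted regions. No comparison was tested, since listing chose the regions. Members, gene lists and rules were chosen with earlier results of these data known. Named were, per comparison and direction, the 3 regions with the largest folds, those listed in at least 4 comparisons, those with opposite directions (0 were found), those nearest each gene end, the 5 genes most alike, 22 pathway genes (1 of them not reported here) and the nearest neighbours. The other regions were named to account for all. Alternatives were inside regions only, a 10 kb flank, any overlap, a stricter fold, a stricter merge, no other effector tables and, chosen after seeing the data, non-coding genes in the annotation.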

Additional observations from a re-analysis of the deposited data

How the results depend on the processing

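No paired analysis was possible because the tables hold 1 fold per region and no replicate columns, and for the same reason no replicate could be left out. With folds at or above the 25th percentile of their table, regions higher in Th2 than other effector cells numbered 16 in place of 25, those higher in naive than other effector cells 0 in place of 1, and Atxn1 stood at rank 8 in place of 5 by number of regions. Without the 3 tables of other effector cells 20 regions were left in place of 45, by construction, at rank 6. The other counts per direction and the other settings stayed within 1.5 times the reported count, among them 39 regions with the inside of the gene only and 43 with a flank of 10 kb. With non-coding genes in the annotation, an alternative chosen after seeing the data, 39 regions and rank 6 were found. The lack of read counts and replicates limits every value: no fold has an error, and a region missing from a table cannot be told from one that was not measured.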

Other observations

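Where 2 tables list the same coordinates against Th2 cells, their folds can be subtracted to give other effector minus naive cells, though both use the same Th2 libraries. Over the 3896 entries listed identically in both tables, this difference was 0.17 or 0.18 on the log2 scale at 81.4%. At Atxn1 it took these values at 7 of 10 such entries. The exceptions were 0.51 at chr13:45894287-45894719, 0.56 at chr13:45894893-45895277 and -0.21 at chr13:45918997-45919324. The same subtraction through Treg cells gave 0.17 or 0.18 at 9 of 11 Atxn1 entries and at 87.0% of 2761 entries overall. At chr13:45918997-45919324 it again gave -0.21, whereas at chr13:45894893-45895277 it gave 0.41, so the folds of that region do not add up across tables. Whether the repeated value marks regions without reads in both populations was not tested, since the tables hold no read counts.

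Through the Treg tables, other effector minus Th2 was 0.18 or 0.19 at 75.3% of 1760 entries. At Atxn1 it was 0.18 or 0.19 at 3 of the 4 regions that were higher in Treg than Th2 cells. The other was chr13:45687469-45688007, where other effector minus Th2 was -0.81 and naive minus Th2 was -0.98, although neither pair was listed there.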
